A study of Homo sapiens with 11 samples.

Results

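The 10 genes described here are breast receptor and cell identity genes: ESR1, PGR, ERBB2, ERBB3, GATA3, FOXA1, FOXC1, SPDEF, TFF1 and XBP1. They were chosen by name from the 23061 genes of the count tables that could be named, and all 10 are listed there. MDA-MB-231 is an established human cell line grown from a pleural effusion of a triple-negative breast cancer, a class defined by the lack of estrogen receptor, progesterone receptor and amplified ERBB2. RNA was sequenced from 2 libraries of WT cells, which received the transfection reagent without siRNA, and from 2 libraries of mH2A1.1 KD cells, collected 3 days after transfection with 11 nM of an siRNA against mH2A1.1. This protein is a splice isoform of the histone variant macroH2A1. Chromatin of MDA-MB-231 cells, for which the labels name no siRNA, was immunoprecipitated once with an antibody to mH2A1.1 and once with an antibody to total mH2A1. The labels do not say that the 2 libraries of a group came from separate cultures, so the spread between them may be technical.

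In luminal breast cells, the estrogen receptor (ESR1) binds its sites in chromatin together with the pioneer factor FOXA1 and with GATA3, and switches on genes such as PGR and the secreted trefoil peptide TFF1. XBP1 and SPDEF are transcription factors of secretory and luminal epithelium, and XBP1 also drives the response to unfolded protein in the endoplasmic reticulum. ERBB2 and ERBB3 are receptor tyrosine kinases that signal as a pair, and FOXC1 is a forkhead factor used as a marker of basal-like tumours. macroH2A1 carries a large globular macro domain on its tail and is found both in broad silent domains and at some active promoters.

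The 250 bases before the start of 6 of these genes are printed 5′ to 3′ because their peaks differ, with each CG dinucleotide in capitals. They come from RefSeq on GRCh38.p14, and each ends at the base before the Ensembl canonical transcript start. The XBP1 window (chr22:28800570-28800819, minus strand) lies in an mH2A1.1 peak and in no mH2A1 peak, as does the FOXC1 window (chr6:1609665-1609914, plus strand). The SPDEF window (chr6:34556330-34556579, minus strand) lies in peaks of both antibodies. The FOXA1 window (chr14:37595250-37595499, minus strand) and the ESR1 window (chr6:151807432-151807681, plus strand) lie in neither. The PGR window (chr11:101129814-101130063, minus strand) touches an mH2A1 peak and no mH2A1.1 peak.
XBP1: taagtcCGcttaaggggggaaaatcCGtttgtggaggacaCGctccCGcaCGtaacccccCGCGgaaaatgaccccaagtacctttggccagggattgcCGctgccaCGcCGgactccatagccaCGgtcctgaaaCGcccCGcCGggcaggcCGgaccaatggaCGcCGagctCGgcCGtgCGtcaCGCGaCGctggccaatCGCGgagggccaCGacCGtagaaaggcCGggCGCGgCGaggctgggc
FOXC1: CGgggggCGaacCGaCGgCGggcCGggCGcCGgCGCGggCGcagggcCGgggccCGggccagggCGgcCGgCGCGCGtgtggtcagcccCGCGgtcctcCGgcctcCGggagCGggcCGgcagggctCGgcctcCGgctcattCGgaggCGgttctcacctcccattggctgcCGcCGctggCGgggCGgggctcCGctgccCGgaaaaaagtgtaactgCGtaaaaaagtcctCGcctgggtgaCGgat
SPDEF: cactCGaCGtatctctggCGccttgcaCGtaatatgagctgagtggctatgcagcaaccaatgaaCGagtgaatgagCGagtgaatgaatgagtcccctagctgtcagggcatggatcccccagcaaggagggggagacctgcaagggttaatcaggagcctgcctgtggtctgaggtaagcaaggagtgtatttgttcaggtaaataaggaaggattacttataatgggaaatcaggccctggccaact
FOXA1: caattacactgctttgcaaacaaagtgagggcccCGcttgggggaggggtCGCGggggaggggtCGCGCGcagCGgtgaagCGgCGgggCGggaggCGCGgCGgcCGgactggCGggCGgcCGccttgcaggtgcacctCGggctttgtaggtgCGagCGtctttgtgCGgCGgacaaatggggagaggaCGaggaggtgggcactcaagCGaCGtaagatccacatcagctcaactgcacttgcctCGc
ESR1: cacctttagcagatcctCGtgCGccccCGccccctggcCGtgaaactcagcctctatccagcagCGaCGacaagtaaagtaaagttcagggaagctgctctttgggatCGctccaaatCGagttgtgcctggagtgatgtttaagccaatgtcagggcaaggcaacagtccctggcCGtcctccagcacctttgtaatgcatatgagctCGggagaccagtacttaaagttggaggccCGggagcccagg
PGR: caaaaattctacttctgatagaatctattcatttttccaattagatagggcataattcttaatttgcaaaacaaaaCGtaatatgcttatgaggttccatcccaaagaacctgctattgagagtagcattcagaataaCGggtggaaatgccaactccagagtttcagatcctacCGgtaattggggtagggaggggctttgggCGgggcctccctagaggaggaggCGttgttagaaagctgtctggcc

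CG dinucleotides were dense before FOXC1 (37), XBP1 (31) and FOXA1 (26), and fewer before ESR1 (11), SPDEF (6) and PGR (5). The median over 35116 RefSeq windows of 250 bases, chromosome 8 left out, was 11, with quartiles at 3 and 23. An mH2A1.1 peak thus lay over starts both rich and poor in CG among these genes, and the CG-rich FOXA1 start had none. The table matched 8 of the 10 genes with 21 windows, and none matched for ERBB3 and TFF1. None of the 21 windows held a palindromic estrogen response element (GGTCA, any 3 bases, TGACC), a forkhead motif (TGTTTAC) or a GATA motif (AGATAA or TGATAA), each searched on both strands. In all windows, these motifs were found in 0.0399%, 2.98% and 14.6%. Missing letters in these windows say nothing about binding of the factors elsewhere.

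The libraries held 9794674 and 7856892 counts in WT and 5584962 and 2309549 in KD. KD replicate 2 had 0 counts on chromosomes 22 and X and 30 on chromosome 21, where KD replicate 1 had 96666, 226172 and 44311. XBP1 lies on chromosome 22 and TFF1 on chromosome 21, so their values in that library were not read as expression. The 2 KD libraries also differed from each other elsewhere. A chi-square for a constant ratio between 2 libraries was 22.08 per gene in KD without chromosomes 21, 22 and X. It was 3.03 per gene in WT. Counts of MACROH2A1, which sum both isoforms, were 3658 and 2993 in WT and 1449 and 635 in KD. Its log2 fold change was -0.44 (edgeR, SE 0.135, adjusted p = 0.359) and -0.46 with DESeq2 (adjusted p = 0.00311). Markers of the line were present, with 7 of 8 over 1 FPKM (the normalised count per kb of exon) and TWIST1 at 0 counts, and their summed level was 1190 and 1220 FPKM in WT and 1310 and 1770 FPKM in KD. Of 9 luminal cell markers, 7 were over 1 FPKM, with CDH1 (0.377 FPKM in WT) and GREB1 (0.104) under it. The summed level of the 9 was 307 and 338 FPKM in WT and 519 and 777 FPKM in KD. In WT this sum was mostly KRT18 and KRT19 (112 FPKM each) and KRT8 (72.8 FPKM). It also holds TFF3, which lies on chromosome 21. The sum over 4 blood and endothelial markers was 1.03 to 2.27 FPKM.

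In WT cells the 10 genes ranged from strongly expressed to without a single read. XBP1 was highest at 25.8 ± 1.73 FPKM (SD, n = 2), above 93.1% of all genes. SPDEF followed at 11.7 ± 0.972 FPKM, then ERBB2 at 7.39 ± 0.00583, GATA3 at 5.17 ± 0.039 and FOXC1 at 4.23 ± 0.647 FPKM. TFF1 reached 1.27 ± 0.358 FPKM from only 5 and 6 counts, and ERBB3 0.444 ± 0.0826 FPKM. The 2 libraries gave the same order in FPKM, and no 2 neighbours from XBP1 to ERBB3 overlapped, although 2 libraries per group are too few for a test of the order. This order depends on the exon length used as the divisor. In mean WT counts relative to library size alone (CPM), ERBB2 (76.3) was above SPDEF (22.5), and ERBB3 (5.2) was above TFF1 (0.626). XBP1 (78.2) and ERBB2 then overlapped. FOXA1 had 1 read in all 4 libraries together, and ESR1 and PGR had 0. These 3 genes could not be told apart at this depth. Thus 6 of the 10 genes were at 1 FPKM or more, against 46.6% of all genes. The silent state was not unusual in itself, since 30.2% of the genes had no count in any library.

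**Figure D1:**
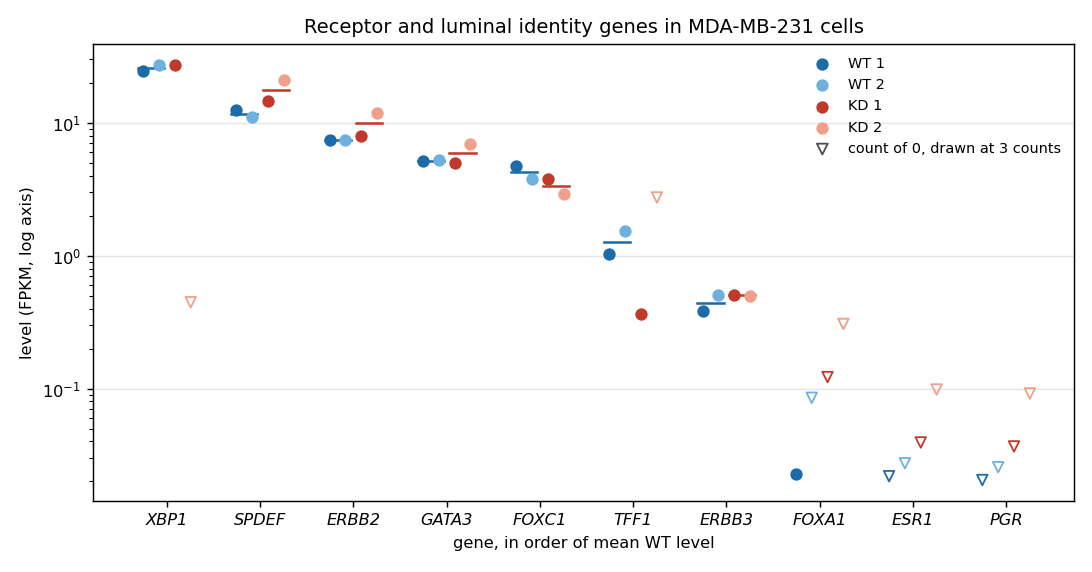
Level of each gene in each RNA library (FPKM, log axis), in order of the mean WT level. Points are libraries and bars are the mean of 2 libraries, drawn only where both have counts. Open triangles mark a count of 0 at the height that 3 counts would give. XBP1 leads in WT at 25.8 FPKM, and ESR1 and PGR have no read in any library.

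The steroid hormone receptors were silent. ESR1, on chromosome 6, was at 0 counts in WT replicates 1 and 2 and in KD replicates 1 and 2. With its 13726 bp of exon, 3 counts would be 0.0219 FPKM in WT replicate 1 and 0.0984 FPKM in KD replicate 2, so a level above this would have been seen. PGR, on chromosome 11, was also at 0 in all 4 libraries, with limits of 0.0205 to 0.0919 FPKM. Neither gene passed the filter on low counts, so neither was tested. The knockdown was accompanied by no read from either receptor gene.

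The kinase receptors were both transcribed, at unlike levels. ERBB2 had 76.3 and 76.4 CPM (the count relative to the size of its library) in WT and 82.6 and 121 CPM in KD, so both KD libraries were above both WT libraries. Its log2 fold change was 0.42 (SE 0.24, edgeR's quasi-likelihood test, adjusted p = 0.392), short of a call. It was 0.12 without KD replicate 2 and -0.0088 once trends with gene length and GC content were removed. ERBB3 had 45, 47, 33 and 13 counts, or 4.52 and 5.88 CPM in WT and 5.93 and 5.84 CPM in KD. The groups overlapped, and the log2 fold change was 0.18 (SE 0.255, adjusted p = 0.692 with edgeR). Per kb of exon, ERBB2 was at 7.39 FPKM in WT while ERBB3 stayed under 1 FPKM. Of the exon bases of ERBB2, 6.93% are also exon of PGAP3 or MIEN1 on the opposite strand, and the strand setting of the counting could not be settled.

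SPDEF, a factor of luminal and secretory epithelium, had 23.8 and 21.2 CPM in WT and 27.8 and 40 CPM in KD, with no overlap. The log2 fold change was 0.59 (SE 0.258, adjusted p = 0.361 with edgeR) and 0.55 with DESeq2 (adjusted p = 0.194). SPDEF has the exons richest in GC of the 10 genes (64.5%), and once trends with gene length and GC content were removed its log2 fold change was 0.036 (adjusted p = 0.921). Without KD replicate 2 it was 0.31. The difference was therefore not past the threshold in these fits, and its size moved with the correction and with that library.

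GATA3, partner of the estrogen receptor, had 17.5 and 17.7 CPM in WT and 16.9 and 23.4 CPM in KD. One KD library lay below WT and the other above, and the log2 fold change was 0.18 (SE 0.236, adjusted p = 0.672 with edgeR) and turned to -0.15 with the correction and -0.051 without KD replicate 2. FOXC1, the basal-like marker, had 18.7 and 15 CPM in WT and 14.9 and 11.7 CPM in KD. The groups did not overlap, KD replicate 1 lying only just under WT. Its log2 fold change was -0.33 (SE 0.24, adjusted p = 0.471 with edgeR), and -0.63 with the correction (adjusted p = 0.373). FOXA1, the pioneer factor, had 1 count in WT replicate 1 and 0 in the other libraries, which is below the limit of 3 counts, so no difference was detectable.

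XBP1 had 742 and 654 counts in WT and 461 in KD replicate 1, or 74.5, 81.9 and 82.8 CPM. KD replicate 1 was thus level with WT replicate 2, and the log2 fold change without KD replicate 2 was 0.091 with edgeR. With all 4 libraries the fit gave -0.89 with an SE of 1.83, which comes from the 0 counts of KD replicate 2, a library without any count on chromosome 22. Counts per gene do not separate the spliced, active form of XBP1 mRNA from the unspliced form. TFF1, the estrogen-induced trefoil peptide, had 5 and 6 counts in WT, 1 in KD replicate 1 and 0 in KD replicate 2. It failed the filter, and at 3 counts or fewer in KD no fold is given.

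Of the 10 genes, 6 passed the filter and none was called by edgeR, where 0% of the 11723 genes tested were called. None had an unadjusted p under 0.05 in edgeR, a mark reached by 12.7% of all genes tested. With a fold over 1.5 required as well, 526 genes were higher and 704 lower in KD. The spread between libraries of a group that edgeR estimated (biological coefficient of variation) was 0.361, and 0.166 without chromosomes 21, 22 and X. With such spread, a missing call does not show that a gene was unchanged. DESeq2 called none of the 5 members that it gave an adjusted p, against 10.2% of genes with one. The 6 and the 5 members both include XBP1, whose 0 counts in KD replicate 2 were not read as expression. The fits that follow, each with 1 KD library, take their spread from the 2 WT libraries alone. Without KD replicate 2, edgeR again called no member, against 7.96% of genes. Without KD replicate 1 it called ERBB2 (log2 fold change 0.66), SPDEF (0.82) and XBP1, the last from the 0 counts described above, and 45.6% of all genes were called in that fit. Of the 5 tested members outside chromosomes 21, 22 and X, 2 were higher in both KD libraries than in both WT libraries (ERBB2, SPDEF) and 1 was lower (FOXC1), against 32.2% and 32.6% of such genes. The counts in the members were near this background. Their median log2 fold change was 0.18, beside 0 over all such genes, and -0.01 with the length and GC correction. In bulk RNA, fewer expressing cells and less RNA per cell cannot be told apart.

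**Figure D2:**
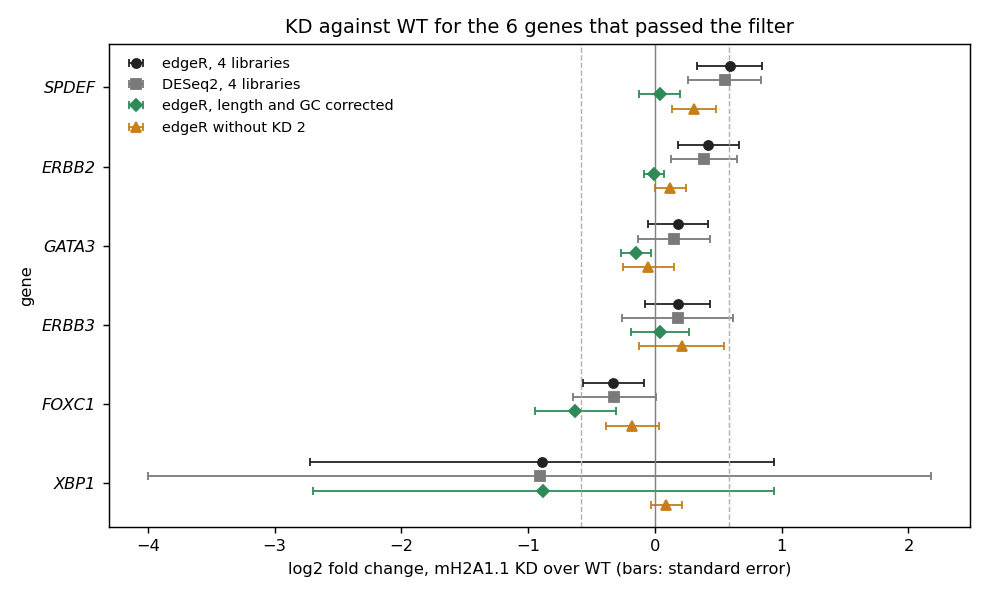
Log2 fold change of KD over WT (x axis) for the 6 genes that passed the filter (y axis), from 4 fits. Points are estimates and bars are standard errors, which for edgeR were derived from the F statistic and for DESeq2 came from its own fit. The dashed lines mark a fold of 1.5 in either direction. SPDEF moves from 0.59 to 0.036 with the length and GC correction, and XBP1 from -0.89 to 0.091 when KD replicate 2 is left out.

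The peaks of the 2 antibodies covered the 10 genes in unlike ways. Every peak is a run of 3000-bp bins, and with 1 library per antibody and no signal in the lists no test between genes or antibodies was made. At the annotated gene start, 4 of the 10 genes had an mH2A1.1 peak (FOXC1, SPDEF, TFF1, XBP1), against 37.8% of all genes. At the canonical transcript start, a definition added after the data were seen, ERBB2 and GATA3 joined them to make 6, against 38%. With any annotated start, ERBB3 made it 7, against 46%. Peaks shared with total mH2A1 lay at the gene start of 3 genes (FOXC1, SPDEF, TFF1), against 23.8%. Peaks of total mH2A1 lay at the gene start of 4 genes (PGR, ERBB3, SPDEF, TFF1), against 21.2%. These shares differ from the background by a few genes at most.

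Of the 6 members that passed the filter, 3 had an mH2A1.1 peak at the gene start, against 46.2% of all genes that passed. With any annotated start all 6 had one, against 57.1%. ESR1 and PGR, the members without a WT count, had none at any start, and 28.6% of the genes without a WT count had one. Of the 2 members with a few counts, TFF1 had a peak at its start and FOXA1 had not, in a class where 45.7% did. Within a gene, the peaks also differed: at least 1 base of 9 of the 10 genes lay in an mH2A1.1 peak, PGR being the exception, against 59.9% of all genes.

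**Figure D3:**
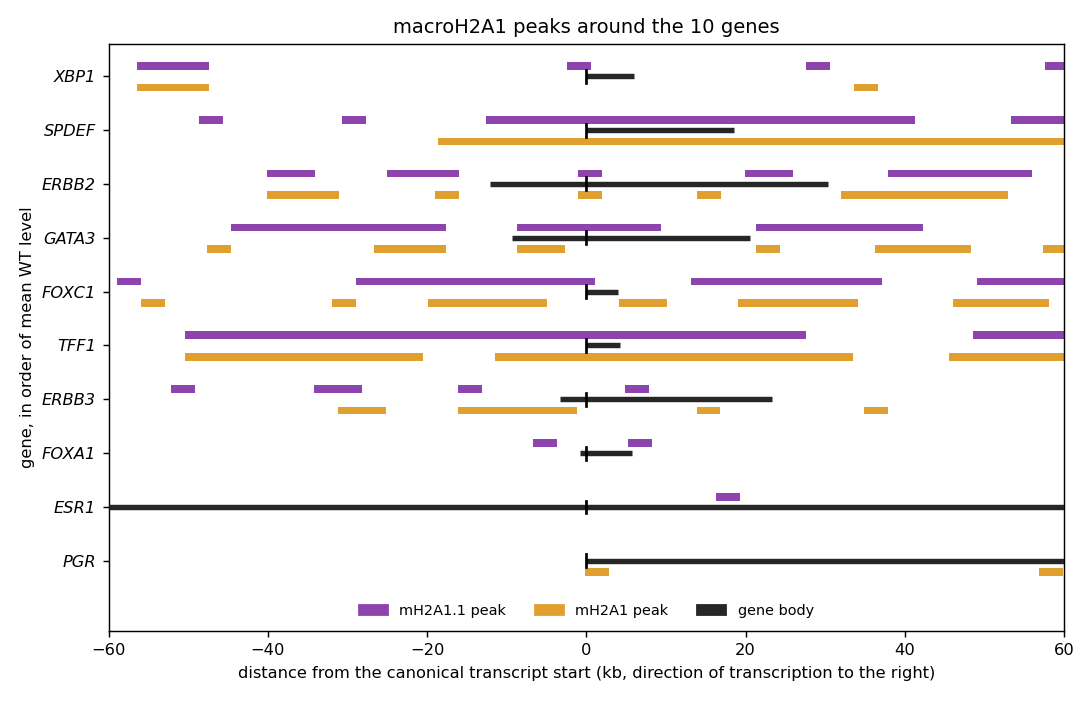
Peaks of mH2A1.1 (purple, above each gene) and of total mH2A1 (orange, below) by distance from the canonical transcript start (x axis, kb, cut at 60 kb), with the gene body in black. SPDEF and TFF1 lie whole within broad peaks of both antibodies, XBP1 has a 3 kb mH2A1.1 peak at its start, and the starts of FOXA1 and ESR1 lie outside peaks of both.

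SPDEF and TFF1 lay inside broad domains. The mH2A1.1 peak over SPDEF (chr6:34515001-34569000, GRCh38) is 54 kb wide, and only 2.2% of the 30687 mH2A1.1 peaks are as wide. It lies wholly within a 153 kb peak of total mH2A1 (chr6:34422001-34575000), and 100% of the gene was covered by both. The peak over TFF1 (chr21:42339001-42417000) is 78 kb wide, a width reached by 0.971% of mH2A1.1 peaks, and 69000 of its bases are shared with total mH2A1. It also holds the starts of TFF2, another trefoil peptide, TMPRSS3 and UBASH3A. TFF2 had 19 and 14 counts in WT, TMPRSS3 1 in each, and UBASH3A 0. The 2 broadest domains among the 10 genes thus held one gene at 11.7 FPKM and one at 1.27 FPKM in WT.

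XBP1, the highest of the 10 in FPKM, had the opposite shape. Its only mH2A1.1 peak within the gene is a single bin (chr22:28800001-28803000) over the start, which covered 9.88% of the gene, and the nearest peak of total mH2A1 lay 33.6 kb away. FOXC1, a gene of a single exon, had a 30 kb mH2A1.1 peak (chr6:1581001-1611000) that ends 1086 bp inside it, so that most of the peak lies upstream. Total mH2A1 shared 15000 bases of that peak but ended 4915 bp before the start. GATA3 had an 18 kb mH2A1.1 peak (chr10:8046001-8064000) over its canonical start and 60.4% of the gene, of which total mH2A1 shared only the first 6000 bases. Its annotated gene start lies 623 bp outside that peak, so its count depends on the start used. GATA3-AS1, whose start lies under the same peak, had 0 counts in all 4 libraries.

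The mH2A1.1 peaks within the kinase receptor genes were narrow. In ERBB2 a single bin (chr17:39699001-39702000), called with both antibodies, covers the canonical start at 39700064 and 387 bp of exon. A 6 kb mH2A1.1 peak lies 19937 bp further into the gene (chr17:39720001-39726000), and 21.2% of the gene was covered in all. In ERBB3 a single mH2A1.1 bin (chr12:56085001-56088000) begins 4836 bp after the canonical start and holds 1683 bp of exon, while total mH2A1 covers the annotated gene start with a peak of 15 kb (chr12:56064001-56079000). Coverage by mH2A1.1 was 11.2% of ERBB3, beside a median of 4.51% over all genes.

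Peaks covered small parts of the silent receptor genes and of FOXA1, but the median gene was also little covered. That median was 4.51% for mH2A1.1 and 0% for mH2A1. In the same order, FOXA1 was at 6.9% and 0%, ESR1 at 1.9% and 3.17%, and PGR at 0% and 5.8%. ESR1 has 3 single-bin mH2A1.1 peaks in 472929 bp, 1.9% of the gene. They lie 16319, 91319 and 289319 bp after the canonical start, the first 2 without an exon base and the third (chr6:152097001-152100000) with 1269 bp of exon. None overlapped total mH2A1, which has 2 other peaks in the gene. PGR has no mH2A1.1 peak, the nearest lying 354 kb from its start, whereas a single bin of total mH2A1 (chr11:101127001-101130000) covers the start and 2468 bp of exon. FOXA1 is touched by 1 mH2A1.1 bin at its 3′ end (chr14:37587001-37590000), over 449 bp of exon, and has another 3752 bp before its canonical start. The nearest peak of total mH2A1 to FOXA1 is about 1010 kb away. Over the genome, 11849 of the 30687 mH2A1.1 peaks overlap a peak of total mH2A1.

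Several genes that partner or follow the estrogen receptor were strongly expressed although ESR1 was not. In this and the next paragraphs, a gene rose or fell where DESeq2 called it. Of 20 partners and targets of the receptor, 13 passed the filter and none was called by edgeR, with 3 at an unadjusted p under 0.05, a mark reached by 12.7% of all genes tested. IGFBP4, a secreted binding protein of insulin-like growth factors, was at 489 ± 19.6 FPKM (SD, n = 2) in WT, and CCND1, cyclin D1, at 171 ± 2.55 FPKM. IL6ST, the shared signalling receptor of the interleukin-6 family, was the 1 gene that DESeq2 called of 12 with an adjusted p, against 10.2% of genes, and it fell, with 916 and 849 CPM in WT and 547 and 343 CPM in KD (log2 fold change -0.99, adjusted p = 0.031). With edgeR its adjusted p was 0.359, and its log2 fold change was -0.68 without KD replicate 2 and -0.41 with the length and GC correction. Without KD replicate 2, edgeR put AGR2, a secreted disulfide isomerase, at 1.54 and BCL2, an inhibitor of apoptosis, at -0.85. That fit holds 1 KD library, so it does not measure the spread between KD libraries. Both genes were named after their values were seen. Of the 20 genes, 11 had an mH2A1.1 peak at the gene start, against 37.8% of all genes.

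The luminal and epithelial list held the most DESeq2 calls. Of its 22 genes, 14 passed the filter, edgeR called none (6 at an unadjusted p under 0.05, against 12.7% of genes), and DESeq2 called 4 of the 8 with an adjusted p, all of them higher in KD, against 10.2% of genes called in either direction. KRT18 and KRT19 were at 112 FPKM each in WT and KRT8 at 72.8 FPKM. KRT8 and KRT18 are the keratin pair of simple epithelium. KRT8 had 473 and 529 CPM in WT and 819 and 1300 CPM in KD (DESeq2 log2 fold change 1.06, adjusted p = 0.0107). KRT18 rose by 0.85 (adjusted p = 0.0486, DESeq2), KRT19, another keratin of this kind, by 1.04 (adjusted p = 0.000293, DESeq2) and CLDN4, a tight junction protein, by 1.52 (adjusted p = 0.00788, DESeq2). Without KD replicate 2, edgeR put KRT8 at 0.72, KRT19 at 0.83, CLDN4 at 0.96 and KRT18 at 0.51. TFAP2C (-0.83) and CDH1 were lower in that fit. Both were named after their values were seen, and DESeq2 left both without an adjusted p. CDH1 had 22 and 19 counts in WT and 2 and 5 in KD, or 2.21, 2.38, 0.359 and 2.25 CPM. KD replicate 2 was thus level with WT, and with so few counts in KD replicate 1 no fold is given for CDH1. With the length and GC correction in edgeR the 4 genes were at 0.72, 0.5, 0.6 and 1.13, in the order KRT8, KRT18, KRT19 and CLDN4. KRT8 and KRT18 have many processed pseudogenes, with which reads could be shared. Over the 14 tested genes the median log2 fold change was 0.31, and 0.09 with the correction. The summed luminal markers given above include these 4 genes, and the list includes no member.

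**Figure D4:**
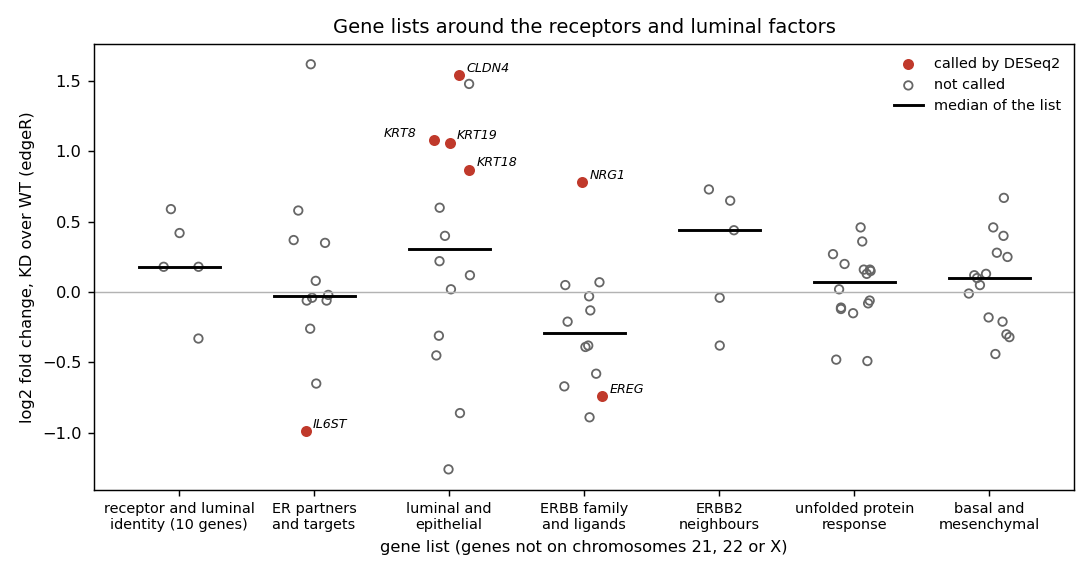
Log2 fold change of KD over WT from edgeR (y axis) for the tested genes of each list (x axis) outside chromosomes 21, 22 and X. Points are genes, red points are genes called by DESeq2, and black bars are list medians. KRT8, KRT18, KRT19 and CLDN4 stand above the luminal median of 0.31, while the 5 members range from -0.33 to 0.59.

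In the ERBB family and its ligands, 12 of 13 genes passed the filter and edgeR called none, with 4 at an unadjusted p under 0.05, against 12.7% of genes. EGFR, the family member typical of triple-negative cells, was at 39.5 ± 0.0718 FPKM in WT, above ERBB2 at 7.39 FPKM and ERBB3 at 0.444 FPKM, and ERBB4 had only 0 and 1 counts there. ERRFI1, a feedback inhibitor of these receptors, was at 106 ± 2.55 FPKM and the EGFR ligand AREG at 64.7 ± 7.06 FPKM. DESeq2 called 2 of the 8 genes with an adjusted p, against 10.2% of genes. NRG1, the ligand of ERBB3, rose from 74.7 and 74.7 CPM in WT to 129 and 128 CPM in KD (log2 fold change 0.77, adjusted p = 9.97e-07, DESeq2), and was at 0.93 with the length and GC correction (adjusted p = 0.233, edgeR). EREG, an EGFR ligand, fell by 0.75 on the log2 scale (adjusted p = 0.0373, DESeq2). That call was lost in DESeq2 without chromosomes 21, 22 and X (adjusted p = 0.103), and with the length and GC correction EREG was at -0.12 (adjusted p = 0.772, edgeR). Without KD replicate 2, edgeR put EREG at -0.66 and NRG1 at 0.79.

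The 8 neighbours of ERBB2 on chromosome 17 gave no call with either tool. Of these, 5 passed the filter, none at an unadjusted p under 0.05 in edgeR, against 12.7% of genes. Their median log2 fold change was 0.44, beside 0.42 for ERBB2 itself, and 0.1 with the correction. MIEN1, a membrane-anchored protein, was at 10.8 ± 0.721 FPKM in WT, STARD3, a cholesterol-binding protein of endosomes, at 6.62 ± 0.29 FPKM, and TCAP, a sarcomere protein, at 1.67 ± 0.15 FPKM. In WT, ERBB2 at 7.39 FPKM was thus below MIEN1. In CPM, which does not divide by exon length, ERBB2 was at 76.3, above MIEN1 at 21.9 and STARD3 at 38.7. The FPKM of ERBB2 divides by 10321 bp, the exons of all its annotated transcripts together, so this order depends on the length used.

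The unfolded protein response around XBP1 was expressed throughout and did not pass the test. All 17 genes passed the filter and none was called by edgeR, with 0 at an unadjusted p under 0.05, against 12.7% of genes. DESeq2 called none either, against 10.2% of genes. ATF4, on chromosome 22, had 0 counts in KD replicate 2, so its fit (SE 1.97 in edgeR) was not read. HSPA5, the main chaperone of the endoplasmic reticulum, was at 161 ± 5.13 FPKM in WT, the disulfide isomerase PDIA4 at 97.3 ± 9.64 FPKM and the chaperone HSP90B1 at 85.7 ± 4.24 FPKM. The median log2 fold change of the 16 genes outside chromosomes 21, 22 and X was 0.07, with and without the length and GC correction. HSP90B1 had the lowest value of the 3 named, -0.49 (adjusted p = 0.361, edgeR).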

How the data were processed

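RNA-seq libraries of WT and mH2A1.1 KD cells (2 each) and 1 ChIP-seq peak list for each of 2 antibodies were analysed. The authors aligned reads to GRCh38 with STAR 2.5.1 and assigned them to genes with htseq-count, which left the deposited raw read counts per Ensembl gene. The authors called enrichment over input with normR, and the deposited peak lists hold positions and no signal. Identifiers were named with GENCODE release 44 (23061 of 23167 matched). Counts were normalised by TMM, filtered on low values and tested with edgeR 4.0.16 (quasi-likelihood test, Benjamini-Hochberg adjustment over all genes tested). The SE given with edgeR is the size of the log2 fold change divided by the square root of its F statistic. Genes past an adjusted p of 0.1 with more than a 1.5-fold difference were called. DESeq2 1.42.0 was the main alternative. FPKM is the TMM-normalised CPM divided by the summed exon length in kb. A count of 0 allows up to 3 counts per library, and this covers counting error only. Peaks were matched to starts by at least 1 bp within 500 bp on each side. The named genes are the 10 members, the targeted gene, genes starting under the same peak, and from each list the genes called by either tool and the 3 with the highest WT FPKM. The genes and lists were chosen with earlier results of these data known.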

Additional observations from a re-analysis of the deposited data

How the results depend on the processing

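The count of genes called between WT and KD was 0 with edgeR, with the other size factors, without the filter, without chromosomes 21, 22 and X, with the length and GC correction, and with the replicate block. It was 945 with DESeq2 and 874 with DESeq2 without chromosomes 21, 22 and X, an alternative chosen after seeing the data. With 1 library left out in turn it ran from 0 to 5574, with 966 without KD replicate 2 and 5574 without KD replicate 1. The lone library of a group is then assumed to vary like the other group. The cause was not tested. The member calls ran from 0 to 3 when 1 library was left out, with the 3 coming without KD replicate 1, and were 0 in the other fits. Signs turned for 4 members. The log2 fold change of ERBB2 was -0.0088 with the length and GC correction and -0.0089 with that correction and the replicate block. GATA3 was at -0.15 and -0.14 in the same 2 fits. With 1 library left out in turn, GATA3 ran from -0.051 to 0.4, ERBB3 from -0.003 (without WT replicate 1) to 0.38, and XBP1 from -12.04 (without KD replicate 1) to 0.091 (without KD replicate 2, which has no count for it). The replicate numbers are shared by WT and KD only as numbers, and the deviations of same-numbered libraries correlated at r = 0.044 over genes (0.252 without chromosomes 21, 22 and X), so the block was not used as a pairing. It changed no member call. For peaks, 7 members counted when any annotated transcript start was allowed and 9 when any overlap with the gene was, against 4 at the gene start, and the other definitions gave 3 to 6. The number of members at 1 FPKM or more in WT was 6, and 4 with the whole gene length as the denominator. Depth limits the lowest genes: 3 counts correspond to 0.301 CPM in WT replicate 1 and 1.35 CPM in KD replicate 2.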

Other observations

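The basal and mesenchymal genes ranged from very abundant to silent. VIM, the intermediate filament of mesenchymal cells, was at 444 ± 24.1 FPKM (SD, n = 2) in WT, the receptor kinase AXL at 321 ± 1.2 FPKM and CAV1, the coat protein of caveolae, at 240 ± 9.26 FPKM, while KRT5, KRT14 and TWIST1, named after their values were seen, had no count in WT. Of 20 genes, 16 passed the filter, and edgeR called none, with 1 at an unadjusted p under 0.05, against 12.7% of genes. DESeq2 called none, against 10.2% of genes. In DESeq2 without chromosomes 21, 22 and X, VIM was called (log2 fold change 0.66, adjusted p = 0.0992). The median log2 fold change of the 15 tested genes outside these chromosomes was 0.1, and 0.05 with the length and GC correction.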
